A study of Mus musculus with 6 samples.

Results

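The JAK kinases and STAT factors were followed in double positive (DP) thymocytes, immature thymus cells with CD4 and CD8 together on their surface. The 9 genes were taken by symbol, *Jak1*, *Jak2*, *Jak3* and *Tyk2* among the kinases and *Stat3*, *Stat4*, *Stat5a*, *Stat5b* and *Stat6* among the factors, out of 23183 gene symbols in each library. Every one of the 9 had a row in all 6 libraries and passed the filter on low values. The libraries were made from DP thymocytes sorted from C57BL/6 mice at 6 weeks of age. Of the 6, 3 libraries came from WT mice, which carried floxed *Nsrp1* alleles without Cre (*Nsrp1* f/f), and 3 from NSrp70-cKO mice, which carried the same floxed alleles with Cre driven by the CD4 promoter (*Nsrp1* f/f CD4Cre). *Nsrp1* encodes NSrp70, a splicing factor of nuclear speckles. The paper places the start of its deletion by CD4-driven Cre in late double-negative thymocytes, the stage before DP. No group carried Cre without the floxed alleles, and the labels do not say whether the replicates came from separate mice, so that p-values measure only the spread between these libraries.

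Cytokine receptors of this class have no kinase activity of their own, and JAKs, tyrosine kinases held on the receptor tails, phosphorylate each other and the receptor when a cytokine joins the chains. STATs then dock on the receptor, are phosphorylated by the JAKs, pair, enter the nucleus and bind DNA. In the thymus the best known input is interleukin-7, which acts through *Jak1*, *Jak3* and the STAT5 proteins in thymocytes before and after the DP stage. DP thymocytes themselves are known for a low interleukin-7 receptor and a high level of the inhibitor *Socs1*.

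The values are FPKM (fragments per kilobase of a transcript, set against the total of mapped fragments), so levels of different genes can be compared per length. The estimated depth was 20.66 to 20.78 M fragments in WT (M, mega) and 13.08, 20.6 and 17.36 M in cKO 1, 2 and 3. *Nsrp1*, listed under its older symbol *Ccdc55*, was at 20.2, 20.7 and 21.1 FPKM in WT and at 17.7, 15.8 and 15.0 in cKO. In limma, *Nsrp1* fell by 0.34 on the log2 scale (adjusted p = 0.00675), with an adjusted p of 0.184 when the WT libraries were counted as 1 sample. FPKM counts fragments over the whole gene and does not show whether the floxed exons were lost. Over single-transcript genes, pairs of WT libraries differed by a chi-square of 1.51 to 1.61 per gene, little above the 1 that counting alone gives, and pairs of cKO libraries by 32.3 to 69.8. *Xist*, expressed from the inactive X chromosome, averaged 70.9 FPKM in WT and 4.75 in cKO, whereas the Y-linked genes *Ddx3y*, *Eif2s3y*, *Kdm5d* and *Uty* averaged 7.23 to 36.2 in cKO and had a value of 0 in each WT library. Genotype and sex-linked expression therefore cannot be told apart in these libraries. No JAK or STAT gene lies on a sex chromosome, but the part of sex in genes on the other chromosomes was not tested. All 10 DP marker genes were detected, and their summed FPKM was 5290 to 5380 in WT and 7230 to 9350 in cKO. Of 12 markers of mature single-positive T cells, none was at 0 in every library, 11 were tested, 2 rose and 7 fell, with a summed FPKM of 468 to 472 in WT and 462 to 574 in cKO. Of 6 markers of double-negative thymocytes, 5 were tested, 0 rose and 3 fell, with a summed FPKM of 44.9 to 46.0 in WT and 31.7 to 42.1 in cKO. The summed FPKM of 5 erythroid markers was 1.96 to 2.72 in WT and 12.3 to 26.6 in cKO. In sorted cells measured in bulk, fewer cells of a type and less RNA per cell cannot be told apart, and the part of these markers in the results below was not tested.

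Among the kinases, *Jak3* and *Tyk2* fell in NSrp70-cKO DP thymocytes, while *Jak1* and *Jak2* did not pass the test. Among the factors, *Stat3*, *Stat5a* and *Stat5b* fell, *Stat4* rose and *Stat6* did not pass. Of the 9 genes, 6 were called at an adjusted p under 0.05 from limma, which is 66.7%, against 65.5% of all 10326 genes tested. By direction, 1 rose, where 35.8% of all genes did, and 5 fell, where 29.8% of all genes did. The 3 cKO values lay above all WT values for 1 of the 9 (39.2% of all genes), below them for 6 (33.3%) and overlapped with them for 2, where 72.5% of all genes lay on one side or the other. No JAK or STAT gene rose at least 2-fold, as 3.88% of all genes did. The median log2 fold change was -0.47 over the 9 genes and 0.039 over all genes. The share called was thus near that of all genes. Quantile normalization called 1 JAK or STAT gene up and 7 down, against 3435 and 3089 of all 10326 genes. A common FPKM total in all libraries called 0 up and 8 down, against 902 and 6181, and the fit without cKO 2 called 2 up and 6 down, against 4113 and 3554.

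**Figure D1:**
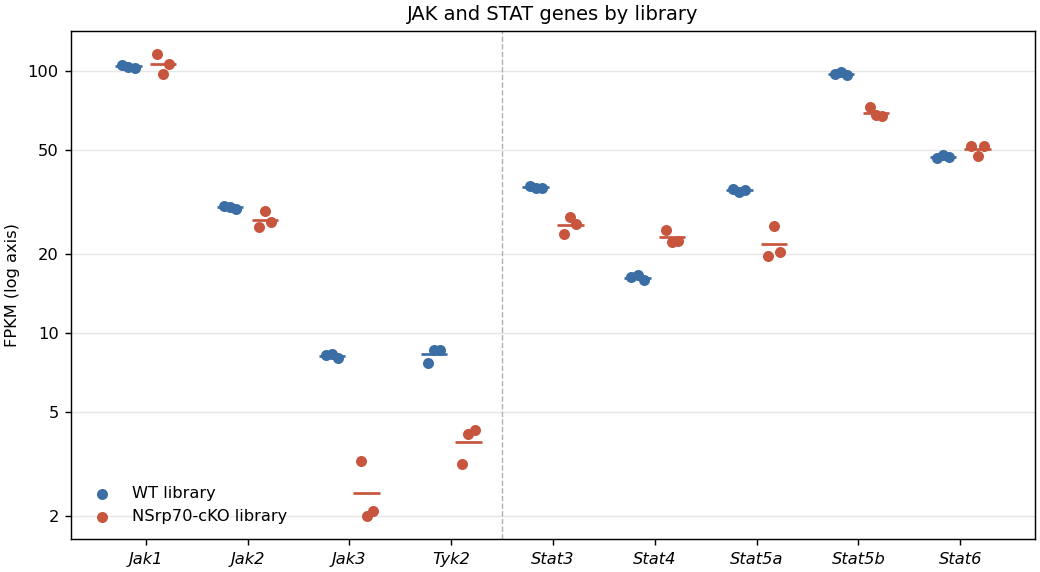
FPKM of each JAK and STAT gene in every library, with WT and NSrp70-cKO libraries side by side and the group mean marked. The cKO points of *Jak3* (2.01 to 3.24) and *Tyk2* (3.17 to 4.26) sit below all WT points, those of *Stat4* (22.3 to 24.7) above, and those of *Jak1* and *Stat6* overlap with WT.

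*Jak1*, the kinase shared by the common gamma chain, gp130 and interferon receptors, had the highest level of the 9 genes. It lies on chromosome 4 of GRCm38, the assembly called mm10, at chr4:101152367-101265282 on the minus strand. The FPKM of *Jak1* was 106.0, 103.9 and 103.0 in WT and 116.1, 97.4 and 106.9 in cKO, so that the WT values lay inside the cKO range. With limma the log2 fold change was 0.029 (standard error 0.084, adjusted p = 0.777), and the sign turned to -0.31 with quantile normalization (adjusted p = 0.00396). *Jak2*, which serves the interferon gamma and growth hormone receptors, lies at chr19:29251828-29313080 on the plus strand. It was at 30.7, 30.3 and 29.8 FPKM in WT and at 25.4, 29.3 and 26.5 in cKO. All 3 cKO values of *Jak2* lay below WT, with cKO 2 only just below. Its log2 fold change of -0.16 (standard error 0.069) missed the threshold (adjusted p = 0.0783 from limma), whereas without cKO 2 it was -0.21 with an adjusted p of 0.00565.

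*Jak3*, which is mostly confined to blood cells and binds the common gamma chain encoded by *Il2rg*, had the largest log2 fold change of the 9 genes. It lies at chr8:71676296-71690575 on the plus strand. Its FPKM was 8.25, 8.36 and 8.01 in the WT libraries, 8.21 ± 0.177 (SD, n = 3). In cKO its FPKM was 3.24, 2.01 and 2.10, or 2.45 ± 0.687. The groups were far apart, the WT mean being 3.35 times the cKO mean. On the log2(FPKM + 1) scale, where the 1 added to each value shrinks the fold changes of weakly expressed genes, the difference was -1.43 (standard error 0.138, adjusted p = 0.00026 from limma). *Jak3* was the only one of the 9 that fell at least 2-fold on this scale, as 4.71% of all genes did. The fewest estimated fragments behind a *Jak3* value were 140, in cKO 3, a counting error of 8.45%, so the spread among cKO libraries was larger than counting alone gives. *Insl3*, a peptide hormone gene on the same strand, shares 404 exon bases with *Jak3*, or 7.55% of the exon bases of *Jak3*. *Insl3* was too low to test, at 0 to 0.340 FPKM in WT and at 0 to 1.44 in cKO.

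*Tyk2*, the kinase of the type I interferon and interleukin-12 receptors, lies at chr9:21104068-21131243 on the minus strand. It was at 7.71, 8.65 and 8.63 FPKM in WT and at 3.17, 4.13 and 4.26 in cKO. Every cKO value lay below every WT value, the WT mean being 2.16 times the cKO mean. The log2 fold change was -0.95 (standard error 0.106, adjusted p = 0.000408 from limma). *Jak3* and *Tyk2* were also the only 2 of the 9 genes still called when WT was counted as 1 sample, at adjusted p-values of 0.03 and 0.0363, under which 15.9% of all genes were called. For *Stat5a*, *Stat4*, *Stat5b* and *Stat3* the adjusted p was then 0.0606, 0.0806, 0.0871 and 0.0889. The antisense gene *1700084C06Rik* covers 554 exon bases of *Tyk2* and was not analysed here. The strand setting of the FPKM calculation is not given in the sources used here, so fragments of *Tyk2* and of its antisense partner may be mixed.

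**Figure D2:**
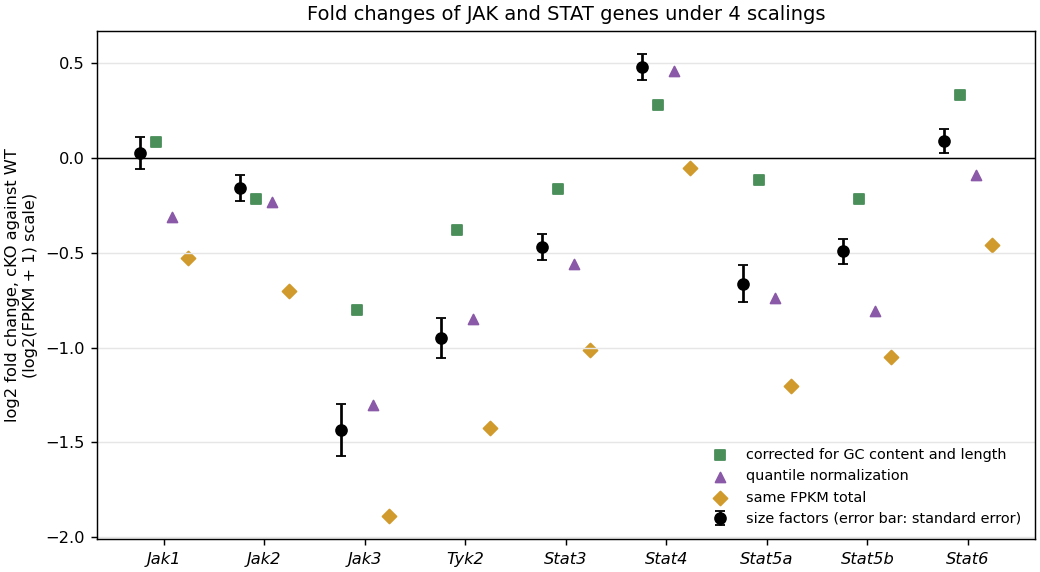
Log2 fold change of each JAK and STAT gene, cKO against WT on the log2(FPKM + 1) scale, under several scalings. Shown are size factors (with standard errors), the correction for GC content and transcript length, quantile normalization and a common FPKM total. Before the correction *Jak3* is at -1.43 and *Stat4* at 0.48; after it the values are -0.80 and 0.28.

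*Stat5a* and *Stat5b*, which carry the signals of interleukin-2, interleukin-7 and growth hormone, are neighbours on chromosome 11. *Stat5b* lies at chr11:100780731-100850724 on the minus strand and *Stat5a* at chr11:100859351-100885169 on the plus strand. In the GENCODE release 21 annotation their coding sequences were identical at 2080 of 2291 aligned bases (90.8%), against 53.9% to 61.3% for every other pair of JAKs or of STATs. Because a read about as long as 100 bases can fall where the copies match, both kinds of stretch are shown. The first pair is bases 561 to 670 of the coding sequence, in exon 6, where the 100 capitals are the start of a run of 324 bases identical in both genes (chr11:100874013-100874122, plus strand, and chr11:100798602-100798711, minus strand).
Stat5a: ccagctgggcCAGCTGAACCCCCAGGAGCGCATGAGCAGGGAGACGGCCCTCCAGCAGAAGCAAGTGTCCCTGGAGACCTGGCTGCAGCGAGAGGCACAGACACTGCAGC
Stat5b: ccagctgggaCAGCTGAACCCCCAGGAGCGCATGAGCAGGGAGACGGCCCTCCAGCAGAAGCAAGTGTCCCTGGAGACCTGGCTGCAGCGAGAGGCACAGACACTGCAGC
The second pair is bases 85 to 144 of the coding sequence, over exons 2 and 3, where the 19 capitals mark the bases that differ (within chr11:100861422-100861736, plus strand, and chr11:100805011-100808439, minus strand, introns left out).
Stat5a: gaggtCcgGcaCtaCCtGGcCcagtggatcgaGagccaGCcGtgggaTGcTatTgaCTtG
Stat5b: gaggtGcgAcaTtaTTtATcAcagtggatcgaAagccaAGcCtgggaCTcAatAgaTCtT
Of the 100-base windows along the longest *Stat5a* transcript, 7.56% also occurred in *Stat5b* without a mismatch and 26.7% with up to 2 mismatches. How the authors' counting treated reads that match both genes is not given in the sources used here, so the division of FPKM between *Stat5a* and *Stat5b* is uncertain to that extent. Of the other pairs examined in this way (*Jak1* with *Jak2*, *Jak3* with *Jak1* and *Stat3* with *Stat4*), none shared a window within 2 mismatches.

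Both STAT5 genes fell. *Stat5a* was at 35.4, 34.7 and 35.1 FPKM in WT and at 19.7, 25.6 and 20.4 in cKO, with cKO 2 nearest to WT. On the log2 scale the change was -0.66 (standard error 0.098, adjusted p = 0.00113 from limma). *Stat5b*, the most abundant of the 5 STAT genes, was at 97.9, 99.6 and 96.6 FPKM in WT and at 73.1, 67.9 and 67.5 in cKO. For *Stat5b* the log2 fold change was -0.49 (standard error 0.065, adjusted p = 0.000752 from limma), and -0.81 with quantile normalization. The groups did not overlap for either gene. Within a library, *Stat5b* was 2.75 to 2.87 times *Stat5a* in WT and 2.65 to 3.7 times in cKO. These ratios overlapped, with a log2 difference of 0.19 (standard error 0.14, exact permutation test, two-sided p = 0.4, adjusted p = 0.48 over 6 ratios), so that a different fall of the 2 genes was not shown. Only cKO 2 was not above WT, and the log2 difference was 0.32 without cKO 2 (exact permutation p = 0.1) and 0.081 without cKO 1.

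*Stat3*, the factor of interleukin-6 and interleukin-10 signalling, lies next to *Stat5a* at chr11:100885098-100939540 on the minus strand. It was at 36.6, 35.9 and 35.9 FPKM in WT and at 23.9, 27.7 and 26.2 in cKO, every cKO value lying below every WT value. Its log2 fold change was -0.47 (standard error 0.069, adjusted p = 0.00109 from limma), a WT mean 1.39 times the cKO mean. The last exons of *Stat3* and *Stat5a* share 72 bases on opposite strands, 0.76% of the exon bases of *Stat3* and 1.01% of those of *Stat5a*. Relative to *Stat5b*, *Stat3* was at 0.361 to 0.374 in WT and at 0.327 to 0.408 in cKO, ranges of which the first lies inside the second (log2 difference 0.015, standard error 0.098, exact permutation test, two-sided p = 1.0).

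*Stat4*, the factor through which interleukin-12 acts, was the only one of the 9 genes that rose. It lies at chr1:51987148-52107189 on the plus strand. Its FPKM was 16.3, 16.6 and 15.9 in WT and 24.7, 22.3 and 22.6 in cKO, with no overlap. The log2 fold change was 0.48 (standard error 0.067, adjusted p = 0.000902 from limma), the cKO mean being 1.42 times the WT mean. With all libraries brought to 1 common FPKM total, where the median log2 fold change of all genes moved from 0.039 to -0.45, the value of *Stat4* turned to -0.053, above that median. The transcript *Gm28177* shares 1033 exon bases with *Stat4* on the same strand, or 26.7% of the exon bases of *Stat4*, and was not analysed here. *Stat6*, the factor of interleukin-4 and interleukin-13 signalling, lies at chr10:127642986-127660957 on the plus strand. It was at 46.8, 47.7 and 47.0 FPKM in WT and at 51.8, 47.6 and 51.6 in cKO, where cKO 2 lay among the WT values and the other two above. For *Stat6* the log2 fold change was 0.090 (standard error 0.065, adjusted p = 0.252 from limma), and 0.13 with an adjusted p of 0.0207 without cKO 2. *Nab2*, a transcriptional corepressor gene, shares 40 exon bases with *Stat6* on the opposite strand and fell, with a log2 fold change of -0.56 (adjusted p = 0.00101), a call lost after the GC and length correction (-0.12, adjusted p = 0.342). *Raver2* shares 4 exon bases with *Jak1* on the opposite strand and was at 1.75 to 1.97 FPKM in WT and at 1.05 to 1.51 in cKO.

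The order of the levels in WT was *Jak1*, *Stat5b*, *Stat6*, *Stat3*, *Stat5a*, *Jak2*, *Stat4*, *Tyk2* and *Jak3*, from the highest mean to the lowest. Neighbours in this order did not overlap over the 3 WT libraries, except *Tyk2* and *Jak3*. In cKO, *Jak1*, *Stat5b* and *Stat6* stayed at the top in the same order, with means of 106.8, 69.5 and 50.4 FPKM. Below them, *Jak2*, *Stat3*, *Stat4* and *Stat5a* had means of 27.1, 25.9, 23.2 and 21.9 FPKM, and each overlapped with its neighbour. *Tyk2* (3.85 ± 0.597 FPKM, SD, n = 3) and *Jak3* (2.45 ± 0.687) were again last and overlapped.

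The make-up of each family was followed as the share of each gene in the family's summed FPKM. The 4 JAK genes summed to 151.1 ± 1.62 FPKM in WT and to 140.1 ± 7.51 in cKO (SD, n = 3). *Jak1* made up 69.0% of the JAK sum in WT and 76.1% in cKO, *Jak2* 19.9% to 20.1% over the WT libraries and 17.2% to 22.1% over the cKO libraries, *Tyk2* 5.52% and 2.77%, and *Jak3* 5.43% and 1.73%. The 5 STAT genes summed to 232.8 ± 2.04 FPKM in WT and to 190.9 ± 2.51 in cKO. The share of *Stat4* in the STAT sum was 6.91% to 7.10% in the WT libraries and 11.7% to 12.8% in the cKO libraries. The share of *Stat6* averaged 20.3% in WT and 26.4% in cKO, and that of *Stat5b* 42.1% and 36.4%. A share or a ratio within a library does not depend on a single scaling factor per library, though quantile normalization can change it.

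**Figure D3:**
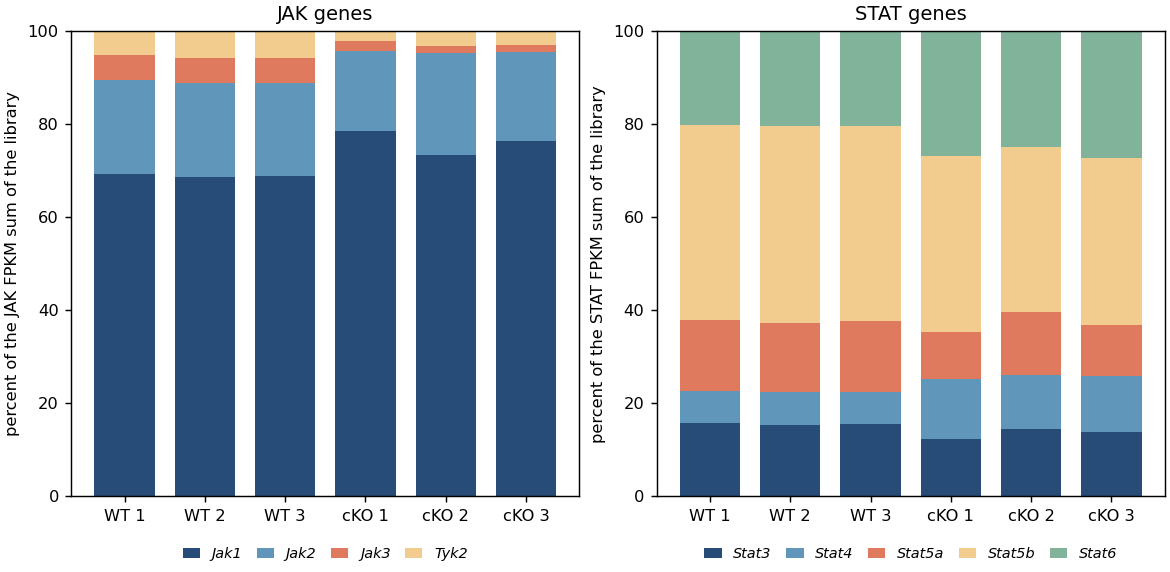
Share of each gene in the summed FPKM of the 4 JAK genes and of the 5 STAT genes, as stacked percent for each library. The share of *Jak1* is 68.7% to 69.4% in WT and 73.3% to 78.5% in cKO, and the band of *Stat4* is wider in all 3 cKO libraries.

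Of 6 ratios between JAK or STAT genes compared within libraries, 3 did not overlap between the genotypes. *Jak3* was at 0.0779, 0.0804 and 0.0778 of *Jak1* in WT and at 0.0279, 0.0206 and 0.0196 in cKO, a log2 difference of -1.81 (standard error 0.16). *Tyk2* was at 0.0728, 0.0833 and 0.0838 of *Jak1* in WT and at 0.0273, 0.0424 and 0.0399 in cKO, a log2 difference of -1.15 (standard error 0.21). *Stat4* was at 0.349, 0.349 and 0.339 of *Stat6* in WT and at 0.477, 0.469 and 0.437 in cKO, a log2 difference of 0.41 (standard error 0.041). Each of these 3 reached an exact permutation p of 0.1, two-sided, which is the smallest that 3 libraries against 3 allow, so that none could pass 0.05 (adjusted p = 0.2 over the 6 ratios). *Jak2* relative to *Jak1* overlapped, at 0.289 to 0.292 in WT and 0.219 to 0.301 in cKO (log2 difference -0.19, standard error 0.13, exact permutation p = 0.4, adjusted p = 0.48). Only cKO 2 was not below WT. The log2 difference was -0.32 without cKO 2 and -0.30 after the GC and length correction (exact permutation p = 0.1 for each), and -0.087 without cKO 1.

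The log2 fold changes of the 9 genes moved with the GC content of their transcripts. The 5 genes that fell had a GC content of 52.5% to 61.0% in their longest annotated transcript, with *Jak3* the highest, whereas *Stat4* was at 45.4%. *Stat6*, at 53.7%, lay inside the range of the genes that fell, and *Jak2* had the lowest GC content of the 9 at 44.3%. Over the 9 genes Spearman's rho of log2 fold change and GC content was -0.75, and over 10242 genes with an annotated length it was -0.34, as a description over genes that share the same 6 libraries. After splines of GC content and length were removed from each library, *Jak3* was at -0.80 (adjusted p = 0.00133 from limma), *Tyk2* at -0.38 (adjusted p = 0.0362), *Stat5b* at -0.21 (adjusted p = 0.0129) and *Stat4* at 0.28 (adjusted p = 0.0177). *Stat3* (-0.16, adjusted p = 0.12) and *Stat5a* (-0.12, adjusted p = 0.357) were no longer called. *Jak2* (-0.22, adjusted p = 0.0172) and *Stat6* (0.33, adjusted p = 0.00332) were called after the correction. With a common FPKM total *Stat6* was called in the opposite direction (-0.46, adjusted p = 0.00106). Under the correction the log2 difference of the *Stat4* to *Stat6* ratio was -0.051 in place of 0.41, that of *Jak3* to *Jak1* was -0.89 in place of -1.81, and that of *Tyk2* to *Jak1* was -0.47 in place of -1.15. The corrected fit called 57.1% of all genes. The part of GC content in the uncorrected differences was not tested further.

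**Figure D4:**
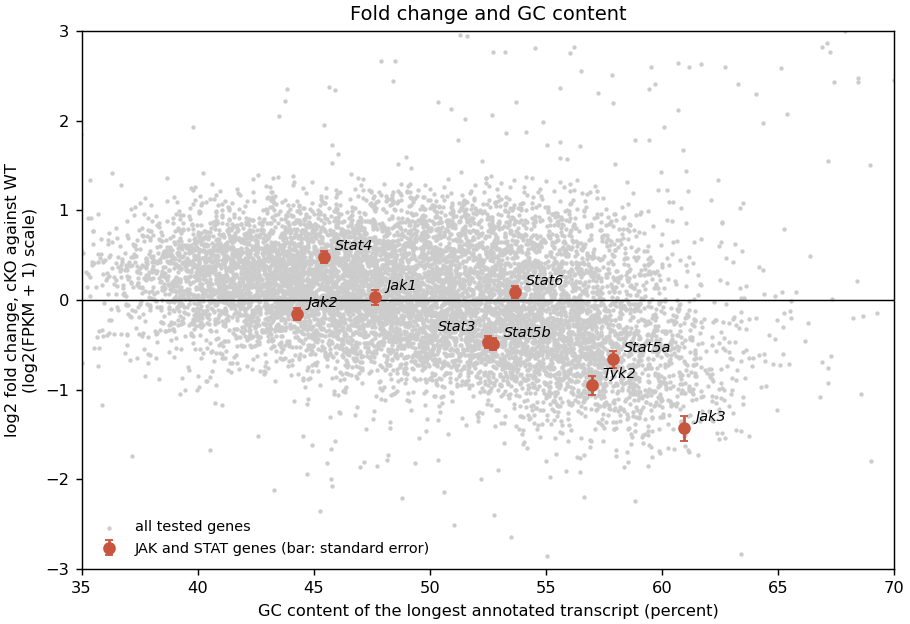
Log2 fold change, cKO against WT on the log2(FPKM + 1) scale, against the GC content of the longest annotated transcript in percent, for all tested genes (grey) and the JAK and STAT genes (coloured, with standard errors). *Jak3* (61.0% GC) is lowest and *Stat4* (45.4% GC) highest of the 9; 41 genes lie outside the plotted range.

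The other genes of the pathway were described from 4 lists. Of 33 cytokine receptor genes, 21 passed the filter on low values, 3 rose and 8 fell (52.4% called against 65.5% of all genes), with a median log2 fold change of -0.19. *Il7r*, the alpha chain of the interleukin-7 receptor and one of the mature single-positive markers, was at 5.86, 6.00 and 5.90 FPKM in WT and at 1.22, 1.22 and 1.06 in cKO. Its log2 fold change was -1.67 (standard error 0.075, adjusted p = 4.82e-05 from limma), and -1.95 after the GC and length correction. *Il2rb*, a chain of the interleukin-2 and interleukin-15 receptors, was at 2.79 to 3.20 FPKM in WT and at 0.461 to 0.786 in cKO (log2 fold change -1.30, adjusted p = 0.000158). Both chains use the common gamma chain as partner. The gene of that chain, *Il2rg*, was at 197.8, 203.3 and 199.0 FPKM in WT and rose to 256.1, 241.3 and 274.9 in cKO (log2 fold change 0.36, adjusted p = 0.00606), a rise that turned to -0.11 with quantile normalization and was 0.0045 after the GC and length correction. *Il2rg* was therefore far above *Jak3*, its kinase partner, in both genotypes.

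The interferon receptor chains did not all change in the same direction. *Ifngr2*, the chain of the interferon gamma receptor that holds *Jak2*, was at 26.6 to 28.1 FPKM in WT and fell to between 15.0 and 19.8 in cKO (log2 fold change -0.65, adjusted p = 0.00127). *Ifngr1*, the chain that binds interferon gamma and holds *Jak1*, was at 288.2 to 293.1 FPKM and rose to between 398.5 and 459.0 (log2 fold change 0.57, adjusted p = 0.00112), although its value was -0.0001 with quantile normalization. *Ifnar2*, a chain of the type I interferon receptor, was at 22.6 to 23.9 FPKM and rose to between 35.1 and 41.3 (log2 fold change 0.69, adjusted p = 0.000414). The WT and cKO ranges of these 3 genes did not overlap. Over the receptor list, 1 rose and 5 fell with quantile normalization, 0 and 16 with a common FPKM total, and 6 and 6 after the GC and length correction.

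Of 20 inhibitor genes, 18 were tested, 4 rose and 8 fell, with a median log2 fold change of -0.18. The share called was 66.7%, near the 65.5% of all genes. *Socs1*, a feedback inhibitor that binds JAKs, was at 144.1, 140.3 and 134.5 FPKM in WT and at 96.5, 99.0 and 85.3 in cKO. Its log2 fold change was -0.58 (standard error 0.080, adjusted p = 0.000861 from limma), and -0.11 (adjusted p = 0.179) after the GC and length correction. *Socs3*, the inhibitor of *Stat3* signalling from gp130, was at 6.91, 7.30 and 7.92 FPKM in WT and at 1.58, 3.02 and 2.82 in cKO (log2 fold change -1.29, adjusted p = 0.000679). *Sh2b3*, an adaptor that restrains *Jak2*, and *Pias3*, an inhibitor of *Stat3*, fell with log2 fold changes of -0.80 and -0.70 (adjusted p = 0.000365 and 0.00173). Those that rose most were *Pias1*, an inhibitor of STAT signalling (0.48, adjusted p = 0.00825), *Socs4* (0.30, adjusted p = 0.0126) and *Ptpn6*, which encodes a tyrosine phosphatase (0.29, adjusted p = 0.00761). With a common FPKM total in all libraries, these last 3 turned to -0.060, -0.23 and -0.27, all above the median of all genes. After the GC and length correction 3 inhibitors rose and 4 fell, with *Sh2b3* (adjusted p = 0.0524) and *Socs4* (adjusted p = 0.0749) no longer called. The split was 2 and 9 with quantile normalization and 0 and 15 with a common FPKM total.

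**Figure D5:**
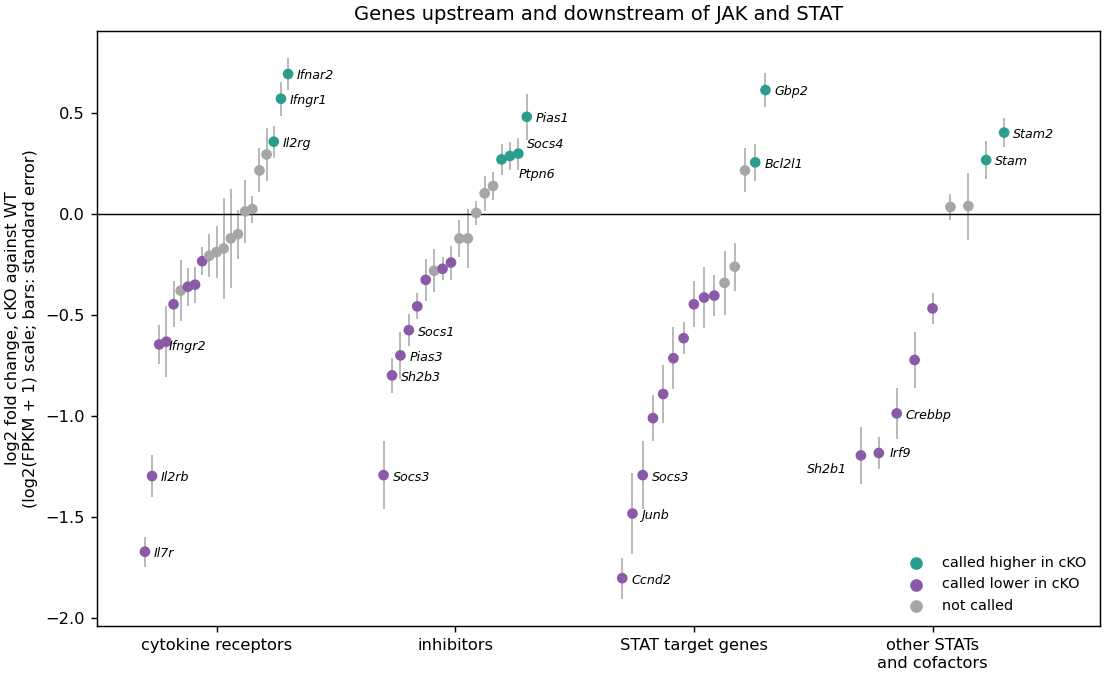
Log2 fold change of each tested gene in the 4 pathway lists, cKO against WT on the log2(FPKM + 1) scale with standard errors, coloured by whether the gene was called. *Ccnd2* (-1.80) and *Il7r* (-1.67) are the lowest points and *Ifnar2* (0.69) the highest.

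Of 21 known STAT target genes, 15 were tested, 2 rose and 10 fell, with a median log2 fold change of -0.45. The share called was 80.0%, against 65.5% of all genes, of which 35.8% rose and 29.8% fell. At least 2-fold lower were 4 of the target genes, as were 4.71% of all genes. *Ccnd2*, which encodes cyclin D2, was at 5.54, 4.59 and 5.41 FPKM in WT and at 0.737, 0.653 and 0.898 in cKO (log2 fold change -1.80, standard error 0.101, adjusted p = 8.29e-05 from limma). *Junb*, an AP-1 factor, was at 153.2, 160.1 and 153.4 FPKM in WT and at 45.3, 79.5 and 46.0 in cKO (log2 fold change -1.48, adjusted p = 0.000828). The other two were *Socs3*, which 2 of the lists hold, and the survival gene *Bcl2* (log2 fold change -1.01, adjusted p = 0.000439). *Bcl2* was named after its value was seen. *Gbp2*, an interferon-induced GTPase, rose (0.62, adjusted p = 0.00078), as did *Bcl2l1*, the gene of the survival protein BCL-XL (0.26, adjusted p = 0.0438), although the value of *Bcl2l1* turned to -0.11 with quantile normalization. Over the target list the split was 1 and 9 with quantile normalization, 0 and 14 with a common FPKM total and 3 and 9 after the GC and length correction. The lists share *Cish*, *Socs2*, *Socs3*, *Il2ra* and *Il4ra*, so their counts are not separate. Mature T cell markers fell in the same libraries, as given above, and their part in the target genes was not tested.

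Of 9 further pathway genes, mostly cofactors, all were tested, 2 rose and 5 fell, with a median log2 fold change of -0.47. The share called was 77.8%, against 65.5% of all genes. *Irf9*, which joins *Stat2* in the type I interferon response, was at 16.0, 15.6 and 15.8 FPKM in WT and at 5.98, 7.21 and 6.05 in cKO (log2 fold change -1.18, standard error 0.080, adjusted p = 0.00011 from limma). *Sh2b1*, an adaptor of *Jak2* (-1.20, adjusted p = 0.000511), and *Crebbp*, an acetyltransferase that serves STATs as a coactivator (-0.99, adjusted p = 0.00066), fell as well. *Stam2* (0.40) and *Stam* (0.27), adaptors of receptor sorting, rose at adjusted p-values of 0.00238 and 0.0423, and turned to -0.10 and -0.25 with a common FPKM total in all libraries, under which 0 of the 9 rose and 6 fell. After the GC and length correction 1 rose and 6 fell, and *Stam* was no longer called (adjusted p = 0.286). *Stat2*, named after its value was seen as a partner of *Irf9*, fell from 18.0, 16.8 and 17.5 FPKM to 8.76, 13.1 and 9.06 (-0.72, adjusted p = 0.0034).

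The DNA word that paired STATs bind most often is TTCNNNGAA, which reads the same on both strands. In the promoter windows of RefSeq on GRCm38.p6, which run from 250 bases before to 50 bases after a gene's start, the word occurred in 8.3% of 32851 windows and in at least 1 window of 9.55% of 27025 genes. None of the 12 windows of the 9 JAK and STAT genes held it, nor the longer word with 4 free letters between TTC and GAA, which *Stat6* prefers and which 6.95% of all windows held. These letters are absent only from those windows. Of the target genes with a window, 5 of 17 held TTCNNNGAA, as did 5 of 26 receptor genes and 2 of 12 inhibitor genes, but 0 of 8 genes of the list of further pathway genes. *Ifnar2*, which rose, was among the receptor genes with TTCNNNGAA. The longer word was held by 2 of the 8 further pathway genes, *Irf9* and *Stat2*, against 8.01% of all genes with a window. It was also held by 2 of 26 receptor genes, 2 of 17 target genes and 0 of 12 inhibitor genes. Windows are shown for 3 genes with TTCNNNGAA, taken only from those whose cKO values all lay below WT. Some other genes with TTCNNNGAA had cKO values that overlapped with WT, and a link between the word and a fall was not tested. The windows, with the fixed letters of the word in capitals, lie at chr9:107296639-107296698 (plus strand), chr11:117969492-117969540 (minus strand) and chr15:9529990-9530038 (minus strand).
Cish: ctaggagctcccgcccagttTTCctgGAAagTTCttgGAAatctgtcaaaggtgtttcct
Socs3: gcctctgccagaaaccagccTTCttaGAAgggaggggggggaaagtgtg
Il7r: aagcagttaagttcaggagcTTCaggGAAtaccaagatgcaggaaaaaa
*Cish*, an inhibitor that STAT5 induces, was named after its values were seen and held the word in 2 places. It was below the filter on low values and not tested, at 0.853, 0.714 and 0.982 FPKM in WT and at 0.155, 0.394 and 0.117 in cKO. A match is a description of the letters and not a bound site.

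The genes most like *Jak3* over the 6 libraries, by Pearson's r of log2(FPKM + 1), were *Sart3*, *Tecpr1*, *Sipa1l1*, *Prrc2a* and *Polr2a*, at 0.9993 to 0.9996. *Polr2a*, the largest subunit of RNA polymerase II, was at 69.3 to 71.7 FPKM in WT and at 28.6 to 36.3 in cKO. Like *Jak3*, it was highest in cKO 1 among the cKO libraries. An r above 0.99 with *Jak3* was reached by 233 genes, and each r rests on 2 separate groups of 3 libraries.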

How the data were processed

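DP thymocyte RNA of 3 WT and 3 NSrp70-cKO libraries was sequenced by the authors from poly(A)-enriched, directional libraries. Trimmed reads were aligned by the authors with Tophat (mm10), and Cufflinks gave the deposited FPKM values, 1 per gene symbol and library. The gene annotation and strand setting are not given in the sources used here. The authors tested counts with DESeq2, which FPKM values do not allow.

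Here the libraries were scaled by median-of-ratios size factors (1.00 to 1.01). Genes reaching 1 FPKM in 3 or more libraries were kept (10326 genes), and genotype was tested on log2(FPKM + 1) by limma 3.58.1 (R 4.3.3; lmFit, eBayes with a trend). The p-values were adjusted over all tested genes by the Benjamini-Hochberg method at 0.05. On simulated data of 10326 genes, it called 95 of 100 genes with a simulated 2-fold difference, 100 of 100 with a 4-fold one, and 7 without any. These counts hold for the simulated data only. They do not give the error rate in the real libraries, where WT varied far less than cKO. Ratios were compared by exact permutation with scipy 1.17.1.

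Depth estimates used the 1-fragment steps of low values of 2612 single-transcript genes, assuming fragments of 200 bases. Between 69.7% and 76.9% of these values lay within 0.1 of a whole fragment, too few to recover counts. Of 23183 symbols, 22112 were in GENCODE release 21 and 647 matched by synonym. The GC and length correction removed natural splines with 5 degrees of freedom each from every library.

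The 9 genes and all lists were chosen with earlier results of these data known. Named from each list were the called genes with the 3 largest changes in each direction, with *Il7r*, *Il2rg* and *Socs1* always, the 5 genes most like *Jak3* and genes whose exons overlap those of a JAK or STAT gene. Alternatives covered the pseudocount, filter, scaling, replicate block, prior variance, each library left out, WT counted as 1 sample, and GC content and length. Replicate numbers were not taken as pairs, since same-numbered libraries did not deviate together. One gene of these lists is not reported here.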

Additional observations from a re-analysis of the deposited data

How the results depend on the processing

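*Jak3* and *Tyk2* kept their direction and their call under all 16 alternatives, over log2 fold changes of -1.89 to -0.80 and of -1.43 to -0.38. Counting WT as 1 sample, calls numbered 2 of the 9 JAK and STAT genes, 3 receptors, 2 inhibitors, 5 targets, 3 cofactors and 1645 of all genes, and *Nsrp1* was at -0.34 with an adjusted p of 0.184. This fit has fewer samples. Quantile normalization called 6 receptors and the GC and length correction 7 inhibitors. That correction turned the log2 differences of the *Stat5b* to *Stat5a* ratio to -0.098 and of the *Stat4* to *Stat6* ratio to -0.051. Quantile normalization turned *Jak1* to -0.31, *Stat6* to -0.089, *Bcl2l1* to -0.11, *Ifngr1* to -0.0001, *Il2rg* to -0.11 and *Ptpn6* to -0.070. Scaling to the same FPKM total turned *Jak1* to -0.53, *Stat4* to -0.053, *Stat6* to -0.46, *Bcl2l1* to -0.30, *Il2rg* to -0.20, *Pias1* to -0.060, *Ptpn6* to -0.27, *Socs4* to -0.23, *Stam* to -0.25 and *Stam2* to -0.10. It called 902 genes higher and 6181 lower, against 3693 and 3073. Before this scaling the FPKM totals were 531517, 521296 and 528484 in WT and 791104, 701396 and 850548 in cKO. Bringing these to a common total therefore lowered the cKO values relative to WT. The size factors of the main fit, 1.00 to 1.01, left the difference in totals in place. Why the totals differed was not tested.

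With each library left out in turn, the JAK and STAT genes called ranged from 6 to 8, all genes called from 5585 to 7667, the log2 difference of the *Stat3* to *Stat5b* ratio from -0.051 to 0.11, and *Jak1* from -0.037 to 0.098. The 8 were reached without cKO 2. Calls over these omissions numbered 8 to 14 among receptors, 8 to 13 among inhibitors, 10 to 15 among targets and 6 to 8 among cofactors. *Bcl2l1* lost its call without any one library except cKO 2, *Stam* without each WT library or cKO 3, and *Socs4* without WT 1 or WT 2. Without a filter on low values, *Bcl2l1*, *Pias1* and *Stam* lost theirs. The fit with the replicate block called 6467 genes and 6 of the 9 JAK and STAT genes, and lost the calls of *Bcl2l1* and *Stam*. Correlations of same-numbered libraries were -0.022, 0.039 and 0.031. WT libraries varied far less than cKO libraries, whereas the fit assumes an equal spread, and depth limits chiefly *Jak3* and *Tyk2* in the cKO libraries.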
